A study of Rattus norvegicus with 2 samples.

Results

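Of 350 rat miRNAs on the array, 3 come from the miR-199a and miR-214 transcript and are described here: rno-miR-199a-5p and rno-miR-199a-3p, which are the arms of 1 hairpin, and rno-miR-214, from another hairpin of the same transcript. They were chosen by name, with earlier results of these data known. The prefix rno-, for rat, is left out from here on. There were 2 arrays, each hybridised with Cy3-labelled total RNA of the carotid artery of male Sprague-Dawley rats of about 250 g. One RNA came from an artery without injury. The other came from an artery 10 days after a balloon catheter had been used to injure it, a model in which the endothelial lining is lost and a neointima of smooth muscle cells grows. The sources used here do not give how many rats each RNA came from. With 1 array per group the values have no replicate error and no test of a difference was possible, so each ratio compares these 2 arrays.

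The transcript is known as Dnm3os, a non-coding RNA read from the strand opposite to the gene of dynamin 3, and the transcription factor Twist1 is a known activator of it. Its miRNAs are enriched in mesenchymal cells, fibroblasts among them, and have been studied in fibrosis and in the stressed heart. A miRNA pairs with messenger RNAs mainly through its seed, bases 2 to 8, and lowers their translation and stability. Known targets include caveolin 1 for miR-199a-5p, mTOR for miR-199a-3p, and Ezh2 for miR-214.

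The mature sequences, from RefSeq on build GRCr8, are shown because the arms and hairpins have different seeds and so would reach different messages; capitals mark the seed. All 3 names were matched. The array files carry no probe sequences, and the array's name miR-214 was read as the 3′ arm, for which it is the older name.
miR-199a-5p: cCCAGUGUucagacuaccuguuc
miR-199a-3p: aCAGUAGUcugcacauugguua
miR-214 (3′ arm): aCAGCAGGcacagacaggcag

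These lie on the plus strand of chromosome 13. The arm miR-199a-5p is at chr13:77116255-77116277, miR-199a-3p at chr13:77116294-77116315 and the 3′ arm of miR-214 at chr13:77121713-77121733. The hairpin genes Mir199a2 and Mir214 are 5310 bases apart, and both lie inside the span of Dnm3 (chr13:76892381-77371346), which is read from the minus strand. The miRNA table gives gene spans and not exons, so the exon or intron of Dnm3 was not looked up. The seeds of miR-199a-3p and miR-214 have the same base at 5 of 7 positions, those of miR-199a-5p and miR-199a-3p at 3 of 7, and those of miR-199a-5p and miR-214 at 2 of 7. None of the other mature rat miRNAs among the 724 in the RefSeq table had the seed of a member, at bases 2 to 8 or shifted by 1 base. The transcript therefore gives 3 separate seeds, and none of the other miRNAs in that table shares a whole one. A shorter match, at bases 2 to 7, was found between miR-6324 and miR-199a-3p. The hairpin of miR-214, with its 3′ arm in capitals, shows where the measured strand sits.
Mir214 hairpin: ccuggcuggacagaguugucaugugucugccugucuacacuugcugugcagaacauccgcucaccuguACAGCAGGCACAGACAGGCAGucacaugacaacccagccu

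The hairpin of Mir3120 overlaps that of Mir214 by 106 bases on the opposite strand. The array had no feature named for miR-3120, miR-214-5p or miR-199b, so these were not analysed here.

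Each of the 3 miRNAs was detected in both arteries and, without scaling, brighter in the injured one; for miR-199a-3p this direction turned under 4 of the 7 scalings described further on. On the scale of the files, in arbitrary intensity units, miR-214 gave a signal of 419 in the uninjured and 854 in the injured artery. For miR-199a-5p the signals were 604 and 938. For miR-199a-3p they were 1497 and 1820. The injured artery was thus the higher of the pair for every member, and the gap was widest for miR-214. Detection here is the flag in the files, which was 1 for all members on both arrays. No undetected miRNA had a signal above 8.84 in the uninjured or 5.98 in the injured artery, and the lowest of the 6 member signals was 47.4-fold above that level. Together the 3 made up 2.64% of the summed miRNA signal in the uninjured and 3.70% in the injured artery. Brightness depends on the probe as well as on abundance, so the signals do not order the members by amount.

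**Figure D1:**
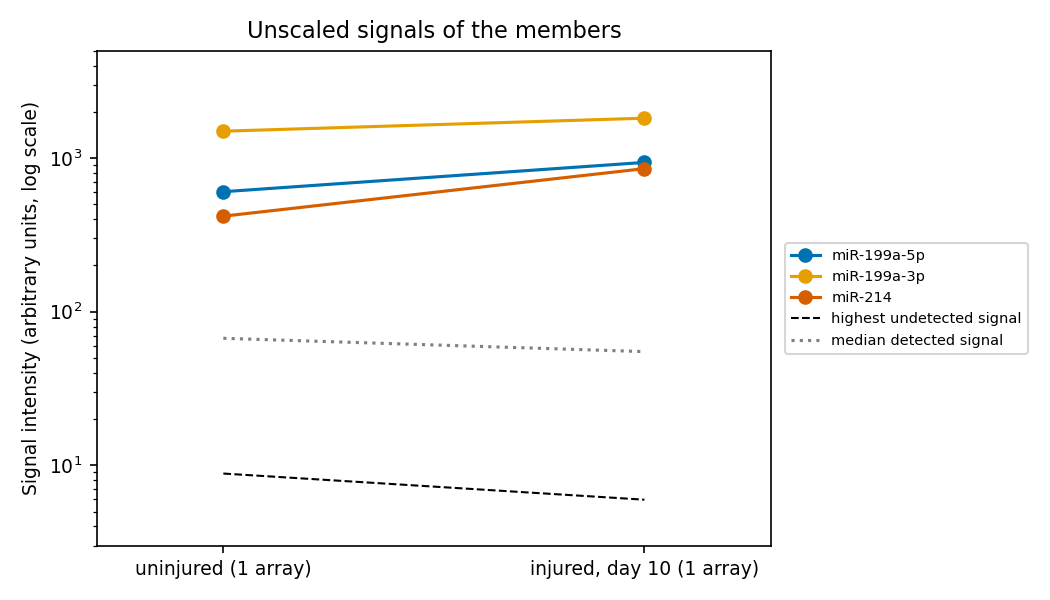
Signal of each member on the uninjured and the injured array, on a log axis in arbitrary units and without scaling, 1 array per group; coloured lines join the same miRNA, the dashed line the highest undetected and the dotted line the median detected signals. The 3 members lie between 419 and 1820, far above the highest undetected signals of 8.84 and 5.98, and each is higher on the injured array without scaling, a direction that for miR-199a-3p turned under 4 of 7 scalings.

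For the comparison, log2 signals were scaled so that the 75th percentile of the 158 miRNAs with flag 1 on both arrays (those called measured) was the same in both, which raised every log2 ratio by 0.09. On this scale miR-214 was 2.17-fold higher in the injured artery (log2 ratio of 1.12, injured minus uninjured). The 5′ arm miR-199a-5p was 1.65-fold higher (0.72) and the 3′ arm miR-199a-3p 1.29-fold higher (0.37, negative under 4 of 7 scalings). So 1 of the 3 members was at least 2-fold higher, a descriptive threshold that 12.7% of the 158 measured miRNAs passed. No member was at least 2-fold lower, against 3.8% of the 158. At 1.5-fold 2 of 3 members passed, against 25.3% of the 158, and a positive ratio was found for 3 of 3 members and 65.2% of the 158. The median log2 ratio was 0.72 for the members and 0.14 for all measured miRNAs, whose quartiles were -0.14 and 0.58. With 3 members these shares are a description only.

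The place of each member among the measured miRNAs does not depend on a single scaling factor. Ordered by log2 ratio from the highest, miR-214 was at place 16 of 158, miR-199a-5p at place 30 and miR-199a-3p at place 56. The log2 ratio lay above the median of all measured miRNAs by 0.98 for miR-214, by 0.58 for miR-199a-5p and by 0.23 for miR-199a-3p. Thus miR-214 and miR-199a-5p lay above the upper quartile and miR-199a-3p between the quartiles. Quantile normalization, which is not a single factor, put miR-214 at place 13, miR-199a-5p at place 20 and miR-199a-3p at place 85, just under the median by 0.04 on the log2 scale.

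All 3 members were among the brighter miRNAs. When the 158 were split into 3 bins by mean log2 signal, the members fell in the brightest bin of 52, where 4 miRNAs (7.69%) were at least 2-fold higher. These 4 were miR-21, miR-31, miR-15b and miR-214. In the dimmest bin 6 of 53 (11.3%) and in the middle bin 10 of 53 (18.9%) were at least 2-fold higher. At 1.5-fold, 6 of the 52 brightest (11.5%) were higher, miR-214 and miR-199a-5p among them. Within this bin miR-214 held place 4, miR-199a-5p place 6 and miR-199a-3p place 11 by log2 ratio, and the median log2 ratio was 0.08. This split was chosen after the values were seen.

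**Figure D2:**
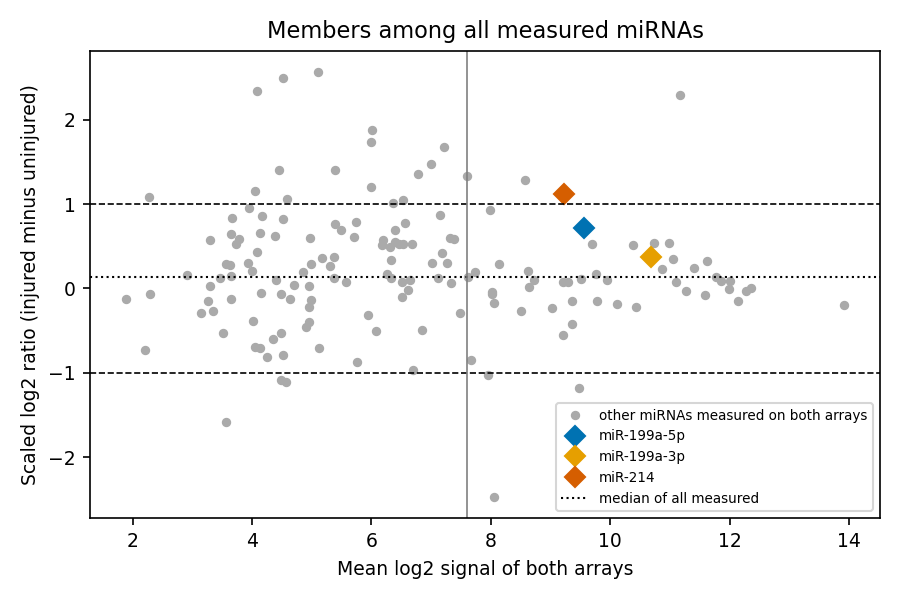
Scaled log2 ratio (injured minus uninjured) against the mean log2 signal of both arrays, 1 point per miRNA for the 158 measured on both; dashed lines mark 2-fold, the dotted line the median of 0.14 and the vertical line the start of the brightest of 3 bins. The 3 members lie in the brightest bin, with miR-214 above the 2-fold line at 1.12 and miR-199a-5p and miR-199a-3p below it at 0.72 and 0.37.

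How much higher the members were depended on how the arrays were aligned. Over 7 scalings, the one reported included, the log2 ratio of miR-214 ran from 0.52 to 1.12 and was positive in 7 of 7, but at least 2-fold in only 2, the reported one and the unscaled values (1.03, a setting in which 10.8% of the 158 were at least 2-fold higher). That of miR-199a-5p ran from 0.13 to 0.72 and was also positive in 7 of 7. That of miR-199a-3p ran from -0.22 to 0.37 and was positive in 3 of 7. A direction for miR-199a-3p can therefore not be given apart from the scaling, whereas miR-214 and miR-199a-5p were higher in the injured artery under each scaling tried. The lowest values came from aligning the 6 control features detected on both arrays by the median of their log2 ratios. Without scaling, each control feature was brighter on the injured array, by log2 ratios of 0.31 to 0.96 (median of 0.50). The unscaled ratio of miR-199a-5p, 0.63, lay within that range, and that of miR-214, 1.03, lay above it. The order miR-214, then miR-199a-5p, then miR-199a-3p held in 7 of 7, but a single scaling factor cannot change it. Only quantile normalization could have changed the order, and it did not.

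**Figure D3:**
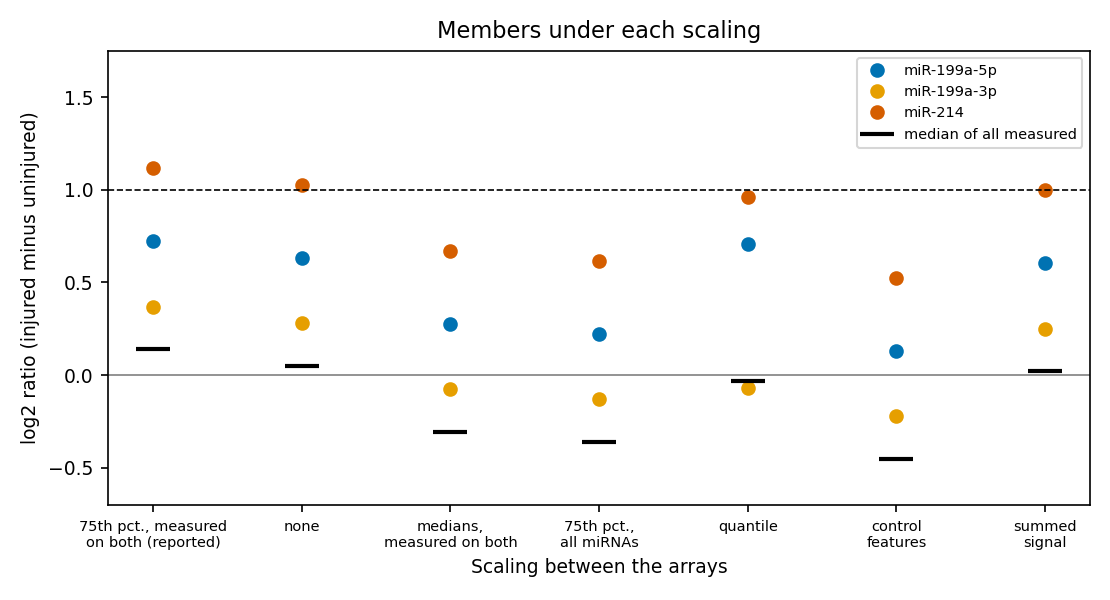
Log2 ratio (injured minus uninjured) of each member under 7 ways of scaling the arrays, with the median of all 158 measured miRNAs as a bar; the dashed line marks 2-fold. In every column miR-214 is highest, miR-199a-5p next and miR-199a-3p lowest, while miR-199a-3p lies below 0 in 4 of the 7. Of these scalings only quantile normalization could change that order.

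The differences between members cancel any single scaling factor. The log2 ratio of miR-214 exceeded that of miR-199a-3p by 0.75 and that of miR-199a-5p by 0.39, and miR-199a-5p exceeded miR-199a-3p by 0.35. Relative to miR-199a-3p, miR-214 was thus 1.68-fold higher in the injured artery than in the uninjured one, and miR-199a-5p 1.28-fold. With quantile normalization the 3 differences were 1.03, 0.25 and 0.78. The members of the transcript did not share 1 ratio on these arrays, and without replicates the size of such a gap cannot be set against array error.

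Other miRNAs that share a hairpin show how far apart arms lay on these 2 arrays. Both arms were measured on both arrays for 18 hairpins. The gap of 0.35 between the miR-199a arms stood beside a median of 0.41 over the other 17, of which 7 had a smaller and 10 a larger gap. The smallest was 0.11 for miR-30b and the largest 1.19 for miR-28. In the endothelial hairpin of miR-126 the arms differed by 0.30, and in the leukocyte hairpin of miR-142 by 0.61. With quantile normalization the gap was 0.78, against a median of 0.52 over the other 17, of which 3 had a larger gap. Both miR-199a arms had a positive ratio on the reported scale, but opposite signs in 4 of 7 scalings; the arms had the same sign in 11 of the other 17 hairpins on the reported scale. For most of the other hairpins the passenger arm was dim, such as miR-126* with signals of 34.5 and 27.8, whereas the lowest signal of a miR-199a arm was 604. That difference in brightness was not matched in this comparison.

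The gap between the hairpins was also set beside other neighbours in the genome, a comparison chosen after the values were seen. Among measured miRNAs with 1 locus in RefSeq, 39 pairs from different hairpins lay within 10000 bases of each other on 1 strand; 2 of these pair miR-214 with a miR-199a arm. Over the other 37 pairs the median gap in log2 ratio was 0.51, from 0.0032 for miR-195 and miR-497 to 2.58 for miR-379 and miR-494. Of these 37, 24 had a larger gap than miR-214 and miR-199a-5p (0.39) and 11 a larger gap than miR-214 and miR-199a-3p (0.75). Both gaps therefore lay inside the range of all 37 other pairs, such as miR-143 and miR-145 (0.35), miR-221 and miR-222 (0.46) or miR-144 and miR-451 (1.36). Pairs of a larger cluster share members, so the pairs are not independent. Brightness was not matched here either, and the lowest signal of a member was 419. Other pairs with both miRNAs above 419 on both arrays all had smaller gaps than both member pairs. They were miR-195 and miR-497, miR-23b and miR-27b (0.22), miR-23a and miR-27a (0.26), and miR-143 and miR-145. Of the 11 pairs with a gap above 0.75, all but miR-15b and miR-16 (0.79) held a dim miRNA, such as miR-379 (signals of 13.8 and 34.3). The uninjured signal of that miRNA was at most 35.7, the value of miR-144. The signals of miR-15b, 126 and 298, were also below 419.

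**Figure D4:**
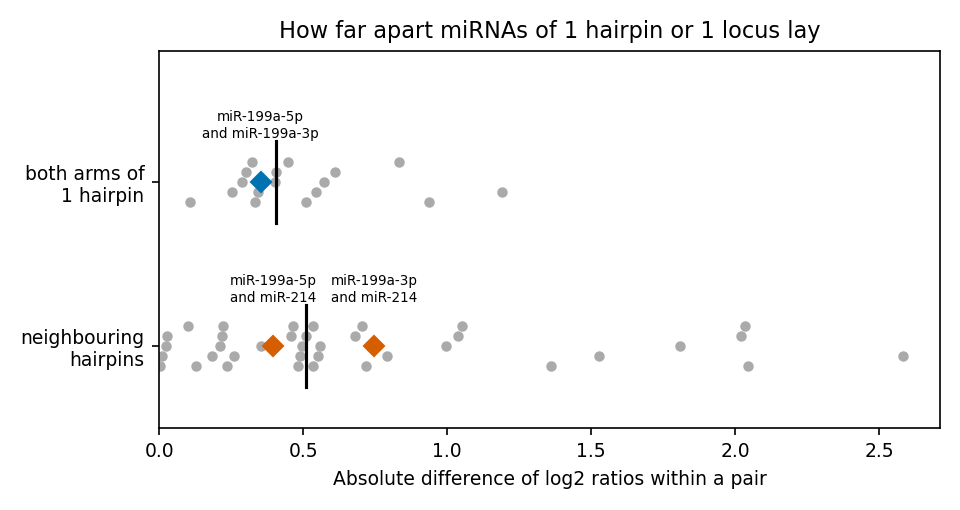
Absolute difference of log2 ratios within pairs of miRNAs measured on both arrays, for the arms of 1 hairpin (18 pairs) and for neighbouring hairpins within 10000 bases (39 pairs); grey points are other pairs, bars their medians of 0.41 and 0.51, and coloured diamonds the pairs of miR-199a and miR-214. The diamonds, at 0.35, 0.39 and 0.75, lie within the spread of the other pairs, which were not matched for brightness. Other neighbouring pairs with all signals above 419, the lowest member signal, had gaps below 0.39.

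In 2 lists of related miRNAs most members lay within 2-fold between the arteries. In a list of miRNAs enriched in mesenchyme, 12 were measured on both arrays besides the members, with a median log2 ratio of 0.17; 2 of 12 were higher by at least 2-fold and 0 were lower by as much, beside 12.7% and 3.8% of all 158. With control features aligned 1 was higher and 2 were lower by that much, miR-145 at -1.14 and miR-99a at -1.01. The 2 higher on the reported scale were miR-21, which favours growth and fibrosis, at 4.90-fold (signals of 1065 and 4915), and miR-379, at 2.64-fold (13.8 and 34.3). Their log2 ratios were 1.70 and 0.81 when control features were aligned. The others lay between -0.55 for miR-145 and 0.58 for miR-127 on the reported scale. In a list of miRNAs tied to matrix and fibrosis, 10 of 13 were measured on both arrays, with a median of 0.06; miR-21, which stands in both lists, was at least 2-fold higher and miR-133a at least 2-fold lower. The collagen repressors miR-29a, miR-29b and miR-29c had log2 ratios of 0.24, 0.54 and -0.18. With control features aligned the medians of the 2 lists were -0.42 and -0.54. The median of the 3 members, 0.72, was above both list medians on the reported scale; no test of that difference was made.

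Markers of vessel wall and blood cells were read on the same arrays. Smooth muscle miR-143, with signals of 17014 and 13992, and endothelial miR-126, with 592 and 587, were detected in both arteries, while the hepatocyte miR-122 was listed at 1 on both and 5 of 6 epithelial miRNAs were undetected on both. The summed signal of 6 leukocyte miRNAs was 316 in the uninjured and 636 in the injured artery. Of these 6, 3 were at least 2-fold higher, and miR-150 had a log2 ratio of -0.50 (-1.09 with control features aligned). The summed signal of 2 erythroid miRNAs was 677 and 125, both at least 2-fold lower. That of 2 smooth muscle miRNAs was 17749 and 14466, and neither passed 2-fold, though miR-145 did (-1.14) with control features aligned. Among 6 striated muscle miRNAs 4 were measured on both arrays and 3 were at least 2-fold lower, with summed signals of 432 and 200, and the lists' shares stand beside 12.7% higher and 3.8% lower over all 158. The 6 nerve miRNAs had summed signals of 421 and 195; 2 were measured on both arrays and the other 4, miR-124, miR-9, miR-138 and miR-137, were detected in the uninjured artery only, where 8 miRNAs in all were. The part of these cells in the values of miR-199a and miR-214 was not tested. In whole-artery RNA, a change in the number of cells of a type and a change in RNA per cell cannot be told apart.

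**Figure D5:**
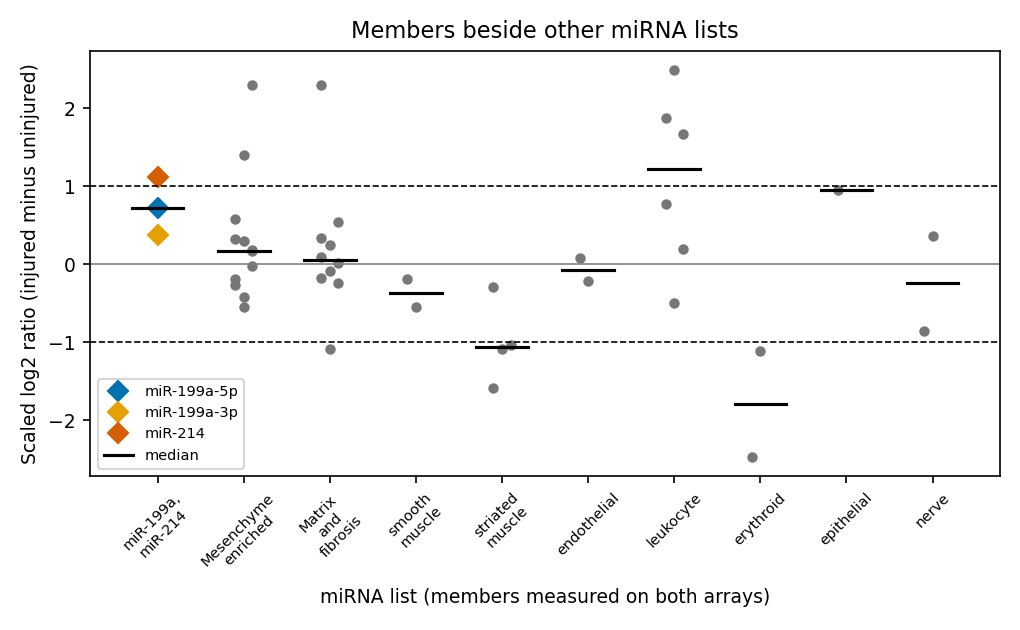
Scaled log2 ratio (injured minus uninjured) of the 3 members and of the measured miRNAs of 9 other lists, 1 point per miRNA, with bars at the medians and dashed lines at 2-fold; the liver list, whose miRNA was not detected, is left out. The members, at 0.37 to 1.12, lie above both smooth muscle miRNAs and below the highest leukocyte miRNAs and miR-21.

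Set against single markers, again free of any single scaling factor, the members lay above the smooth muscle miRNAs miR-143 and miR-145, except that quantile normalization put miR-199a-3p just under miR-143. Leukocyte miRNAs lay on both sides of them: miR-142-5p, miR-142-3p and miR-223 (log2 ratios of 2.49, 1.88 and 1.67) were above every member. By contrast, miR-146a (0.77) was below miR-214 but above both miR-199a arms, and miR-342-3p (0.19) and miR-150 (-0.50) were below every member. The log2 ratio of miR-214 exceeded that of miR-143 by 1.31 and that of miR-145 by 1.66, and fell short of that of miR-223, which is abundant in myeloid cells, by 0.56 and of miR-142-3p by 0.76 (differences of -0.56 and -0.76). For miR-199a-5p the same differences were 0.92, 1.27, -0.95 and -1.16. For miR-199a-3p they were 0.56, 0.92, -1.30 and -1.51. Relative to miR-143, then, miR-214 was 2.48-fold, miR-199a-5p 1.89-fold and miR-199a-3p 1.48-fold higher in the injured artery. Quantile normalization turned the difference between miR-199a-3p and miR-143 to -0.07 and left those of miR-214 and miR-199a-5p at 0.96 and 0.71. The difference from miR-21 was -1.18 for miR-214, -1.57 for miR-199a-5p and -1.92 for miR-199a-3p, so each had a lower ratio than miR-21.

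The miRNAs with the ratio nearest to each member, over the 2 arrays, were mostly dimmer ones. For miR-214 (1.12) they were miR-339-3p at 1.09, miR-532-5p at 1.16 and miR-136 at 1.07, with uninjured signals of 3.43, 11.5 and 17.2. For miR-199a-5p (0.72) they were miR-181b at 0.69, miR-25 at 0.69 and miR-500 at 0.76. For miR-199a-3p (0.37) they were miR-186 and miR-128, at 0.37 and 0.36, and miR-27a at 0.35, the last with signals of 1948 and 2332. With 2 arrays, likeness means a like ratio and nothing more.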

How the data were processed

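The authors deposited a file per array with a linear intensity and a flag for 350 rat miRNAs and 22 control features. Per the labels' protocols, total RNA was extracted with Trizol and labelled with Cy3. The sources used here do not name the scanner software, background subtraction or normalization. The flag (0 or 1) in the deposited files is undefined there and was read as detection. A series-wide table deposited by the authors holds a ratio per miRNA. For 349 of 349 shared names this was the injured intensity over the uninjured one (relative tolerance 1e-05), and it served as an alternative.

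Log2 intensities were scaled by each array's 75th percentile (401 and 377) over the 158 miRNAs flagged on both arrays, with Python 3.11.15 and pandas 2.3.3. The ratio computation was tested on simulated data. No test between groups was run, since each group held 1 array; the number of arrays limits the precision. Alternatives were 6 other scalings and the deposited ratios. The members and lists were chosen with earlier results of these data known. Named miRNAs were the members, their 3 nearest by log2 ratio, list members and miRNAs sharing a hairpin, locus or seed; others were named after their values were seen. Sequences and positions came from RefSeq (GRCr8).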

Additional observations from a re-analysis of the deposited data

How the results depend on the processing

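The log2 ratio of miR-214 stayed positive but under 2-fold with the medians of the measured miRNAs aligned (0.67), the 75th percentile of all miRNAs aligned (0.62), quantile normalization (0.96), the control features aligned (0.52) and the summed signal aligned (0.998); in each of these 5 settings 0 members were at least 2-fold higher, against 1 as reported. The ratio of miR-199a-3p turned negative in the first 4 of these, at -0.075, -0.13, -0.070 and -0.22. Those same 4 settings gave 8, 7, 12 and 7 of the 158 measured miRNAs at least 2-fold higher, against 20, and 16, 20, 11 and 23 at least 2-fold lower, against 6. They shifted the log2 ratios of the 158 by medians of -0.44, -0.50, -0.30 and -0.59. Aligning the summed signal gave 15 of the 158 at least 2-fold higher and 7 at least 2-fold lower. With quantile normalization the difference between miR-214 and miR-199a-3p passed 2-fold (1.03, against 0.75). The ratio of miR-199a-5p and the median of the members kept their sign and stayed under 2-fold in all 7 alternatives, and the unscaled values and the deposited ratios changed no call of a member, with 17 measured miRNAs at least 2-fold higher and 7 lower in both. Which reference is right was not tested. No paired analysis was possible because each group held 1 array. All member signals were far above the undetected range, so detection does not limit these values. The single array per group and the choice of scaling do.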
